A study of Mus musculus with 14 samples.

Results

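Calcium, sodium and HCN channel genes of the mouse cortex were followed in 2 models in which control of gene expression by the microRNA miR-29 was altered. The genes were chosen by symbol alone, as those named Cacna, Cacnb or Cacng with a number, Scn with a number and the letter a or b, and Hcn with a number from 1 to 4. The rule matched 44 of the 24444 genes listed, and the same 44 in both expression tables. The 41 described comprise 7 pores of high-voltage-activated calcium channels, 3 pores of T-type calcium channels, 4 α2δ subunits, 4 calcium channel β subunits, 8 γ subunits, 9 sodium channel pores, 3 sodium channel β subunits and 3 HCN pores.

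Polyadenylated RNA of cortex was sequenced in 14 mice. In the first model, miR29Nestin mice carried floxed alleles of both genomic clusters of the family, miR-29ab1 and miR-29b2c, which had been deleted with Nestin-Cre. This recombinase acts in neural progenitors, which give rise to neurons, astrocytes and oligodendrocytes, whereas microglia and vessels arise from other lineages. The 3 miR29Nestin mice were set against 3 miR29WT mice, both at postnatal day 40 (P40), and the labels do not say which floxed or Cre alleles the wild-type mice carried. In the second model, Dnmt3a-mi5 mice had miR-29 itself intact but carried a CRISPR/Cas9 knock-in that mutates 5 miR-29 binding sites of Dnmt3a, in its 3′ UTR. The gene encodes the DNA methyltransferase that writes non-CG methylation in neurons. The 4 Dnmt3a-mi5 mice were set against 4 Dnmt3a-WT mice at 4.5 months. The knock-in is not restricted to a cell type. The first comparison asks how the cortex differs without miR-29, and the second how it differs when Dnmt3a alone escapes it.

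Voltage-gated calcium and sodium channels open when the membrane depolarises. Each has a large pore-forming subunit, which sets the kind of current, and smaller partners that set how much of it reaches the membrane and how it gates. Sodium pores carry the upstroke of the action potential, high-voltage calcium pores couple it to transmitter release and to gene expression, T-type pores open near rest and favour burst firing, and HCN pores open on hyperpolarisation and help set the resting potential and rhythm. Several γ subunits act in the cortex as partners of AMPA-type glutamate receptors rather than of calcium channels.

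The mature miR-29 sequences are shown because their shared seed, bases 2 to 8 in capitals, defines the site that the second model mutates. They are RefSeq sequences (GRCm38.p6), written 5′ to 3′. miR-29a and miR-29b come from the cluster on chromosome 6, and miR-29b and miR-29c from that on chromosome 1.
miR-29a-3p: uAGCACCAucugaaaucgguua
miR-29b-3p: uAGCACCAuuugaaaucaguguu
miR-29c-3p: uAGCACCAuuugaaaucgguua

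The matching site TGGTGCT was searched on the transcript strand of the longest annotated 3′ UTR of each channel gene (GENCODE M21, GRCm38). It occurred in 3 of the 41, once in each, and in Dnmt3a at 5 positions. The windows below hold 30 bases each, read on the transcript strand, with the site in capitals. They are shown because these are the only channel genes of the 41 with the site in that annotation, and the first Dnmt3a site is given for comparison. The coordinates are those of the site itself, on GRCm38: Cacna1c chr6:118593339-118593345 (minus strand), Cacng4 chr11:107734215-107734221 (minus), Scn3b chr9:40290475-40290481 (plus) and Dnmt3a chr12:3908572-3908578 (plus).
Cacna1c: caggctgctgccTGGTGCTcggggtttcat
Cacng4: tctatggctaacTGGTGCTtcggcctcgag
Scn3b: cactgtttgtctTGGTGCTgggtatttgct
Dnmt3a, first site: ccgacttcataaTGGTGCTttcaaaacagc

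None of these 3 channel genes passed the test in either model. Cacna1c, which encodes an L-type calcium pore, had a log2 difference of −0.11 in miR29Nestin and −0.03 in Dnmt3a-mi5. In miR29Nestin the differences of Cacng4 and Scn3b were −0.10 and −0.12, and in Dnmt3a-mi5 they were 0.06 and 0.10. None of the channel genes that did pass in miR29Nestin or in Dnmt3a-mi5 had a TGGTGCT in its longest annotated 3′ UTR. The site was held by 9.68% of the channel genes tested in miR29Nestin and by 16.6% of all genes tested there with an annotated 3′ UTR. For the genes tested in Dnmt3a-mi5 these shares were 10.0% and 17.0%.

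Gene counts recovered from the deposited values summed to 12.7, 11.8 and 13.1 M reads for the miR29Nestin libraries, against 10.9, 9.18 and 14.4 M for miR29WT. Read depth of the Dnmt3a libraries is unknown. Levels are given as normalised counts, recovered from the deposited log2 values, and those of the Dnmt3a table are approximate because a shift between 2 sets of 4 libraries had been subtracted from it before deposit. Dnmt3a, the gene whose sites the second model mutates, checked the labels. It stood at 5275, 5452 and 5859 normalised counts in miR29Nestin against 1724, 1658 and 1605 in miR29WT, and at 2249, 1958, 2163 and 1948 in Dnmt3a-mi5 against 1200, 1062, 1085 and 1234 in Dnmt3a-WT. In both tables the lowest mutant library exceeded the highest wild-type library. The excitatory-neuron marker Slc17a7 was abundant in all 14 libraries, from 15435 to 20083 normalised counts. The p-values measure the spread between libraries of a group, and in bulk tissue fewer cells of a type and less RNA per cell cannot be told apart. In the Dnmt3a values the subtracted shift is gone from that spread, and the main fit does not count its removal. The main p-values of that table therefore tend to be too small. With the 2 sets as a term, its calls among all genes went from 24 higher and 61 lower to 3 and 10.

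In miR29Nestin cortex, 7 of the 22 tested calcium channel genes, γ subunits included, fell and 1 rose, and 2 of 3 sodium channel β subunits rose. The γ subunits gave 2 of the 7 falls and the 1 rise among the calcium channel genes. None of the 4 tested sodium pores and neither of the 2 tested HCN pores passed. Of the 41 channel genes described, 31 had enough signal to be tested, and 3 of these were higher and 7 lower at an adjusted p under 0.05. The higher genes were Scn4b, Scn2b and Cacng7, and the lower genes were Cacna1g, Cacna2d1, Cacnb3, Cacng8, Cacna1e, Cacna1b and Cacng3. Of all 12014 genes tested, 9.02% were called higher and 10.0% lower, or 19.1% in either direction, against 32.3% of the channel genes. The median log2 difference of the channel genes was −0.10 and that of all tested genes −0.01. Of the 31 channel genes, 23 had a negative difference, as had 51.5% of all tested genes. The 3 miR29Nestin libraries all lay above the 3 miR29WT libraries for 3 channel genes, and below them for 11. Such separation was seen in 18.6% of all tested genes upwards and in 18.7% downwards, or 37.3% in either direction. At an unadjusted p under 0.05, 3 channel genes were higher and 12 lower, against 16.2% and 16.8% of all tested genes (33.0% in either direction). Differences are on the deposited variance-stabilised log2 scale, which understates the change of genes with low counts, so ratios of mean normalised counts are given where they help.

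**Figure D1:**
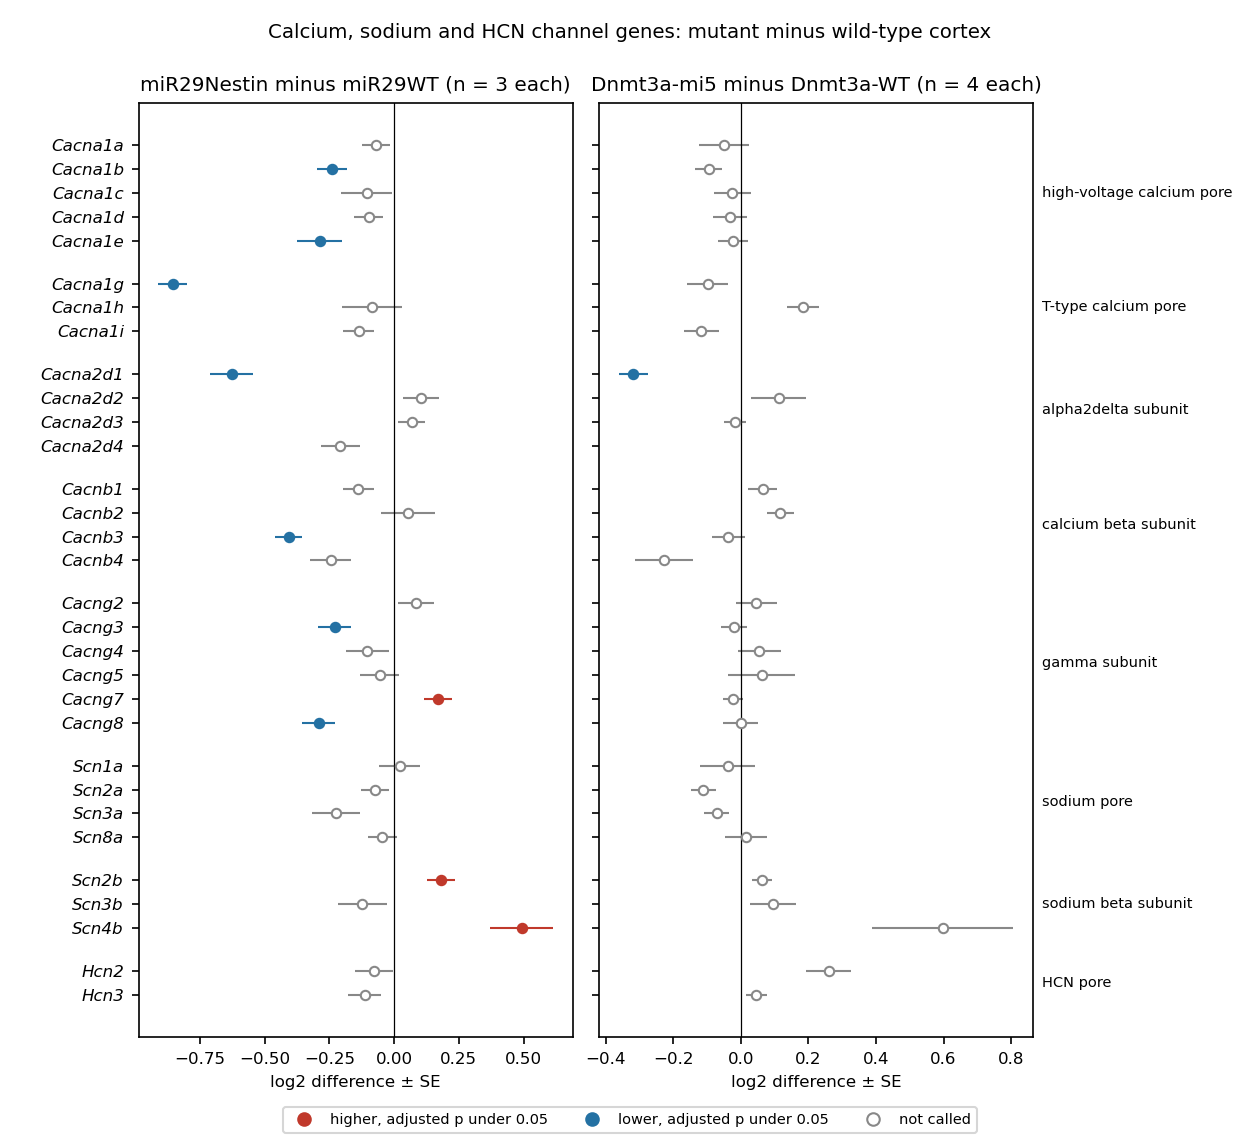
The points are log2 differences, miR29Nestin minus miR29WT (left, n = 3 each) and Dnmt3a-mi5 minus Dnmt3a-WT (right, n = 4 each), with bars of 1 standard error, for every channel gene described and tested in at least 1 table, ordered by role; the horizontal scales of the panels differ. Filled points passed an adjusted p of 0.05: 3 higher and 7 lower on the left, and Cacna2d1 alone, lower, on the right.

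The T-type pores held the largest difference of the 31 tested channel genes. Cacna1g, which encodes CaV3.1, a T-type pore of thalamic and cortical neurons, stood at 719, 741 and 711 normalised counts in miR29Nestin against 1359, 1476 and 1520 in miR29WT. The 3 mutant libraries lay close together and far below the lowest wild-type library. Cacna1g averaged 724 ± 15.9 counts in miR29Nestin and 1452 ± 83.4 in miR29WT (SD, n = 3 each), a log2 difference of −0.85 (SE 0.056, adjusted p = 6.16e-06) and a ratio of means of 0.499. It ranked 22nd by p among the 12014 tested genes. The other T-type pores, Cacna1h and Cacna1i, were not called, at −0.09 (SE 0.115) and −0.14 (SE 0.060, adjusted p = 0.139). For Cacna1i all mutant libraries were nevertheless lower than the wild-type libraries. It passed only with striatal markers as a term (adjusted p = 0.0444), an alternative chosen after seeing the data. Because Cacna1g is abundant in the thalamus, thalamic marker genes were read beside it: the summed counts of 6 markers were 1528 to 1758 in miR29Nestin and 1390 to 1433 in miR29WT. Rora, an abundant marker that was called higher, carried that sum, and the other 5 summed to 474, 470 and 460 counts in miR29Nestin against 478, 501 and 507 in miR29WT, a small difference without overlap. The part of thalamic tissue in the difference of Cacna1g was not tested.

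**Figure D2:**
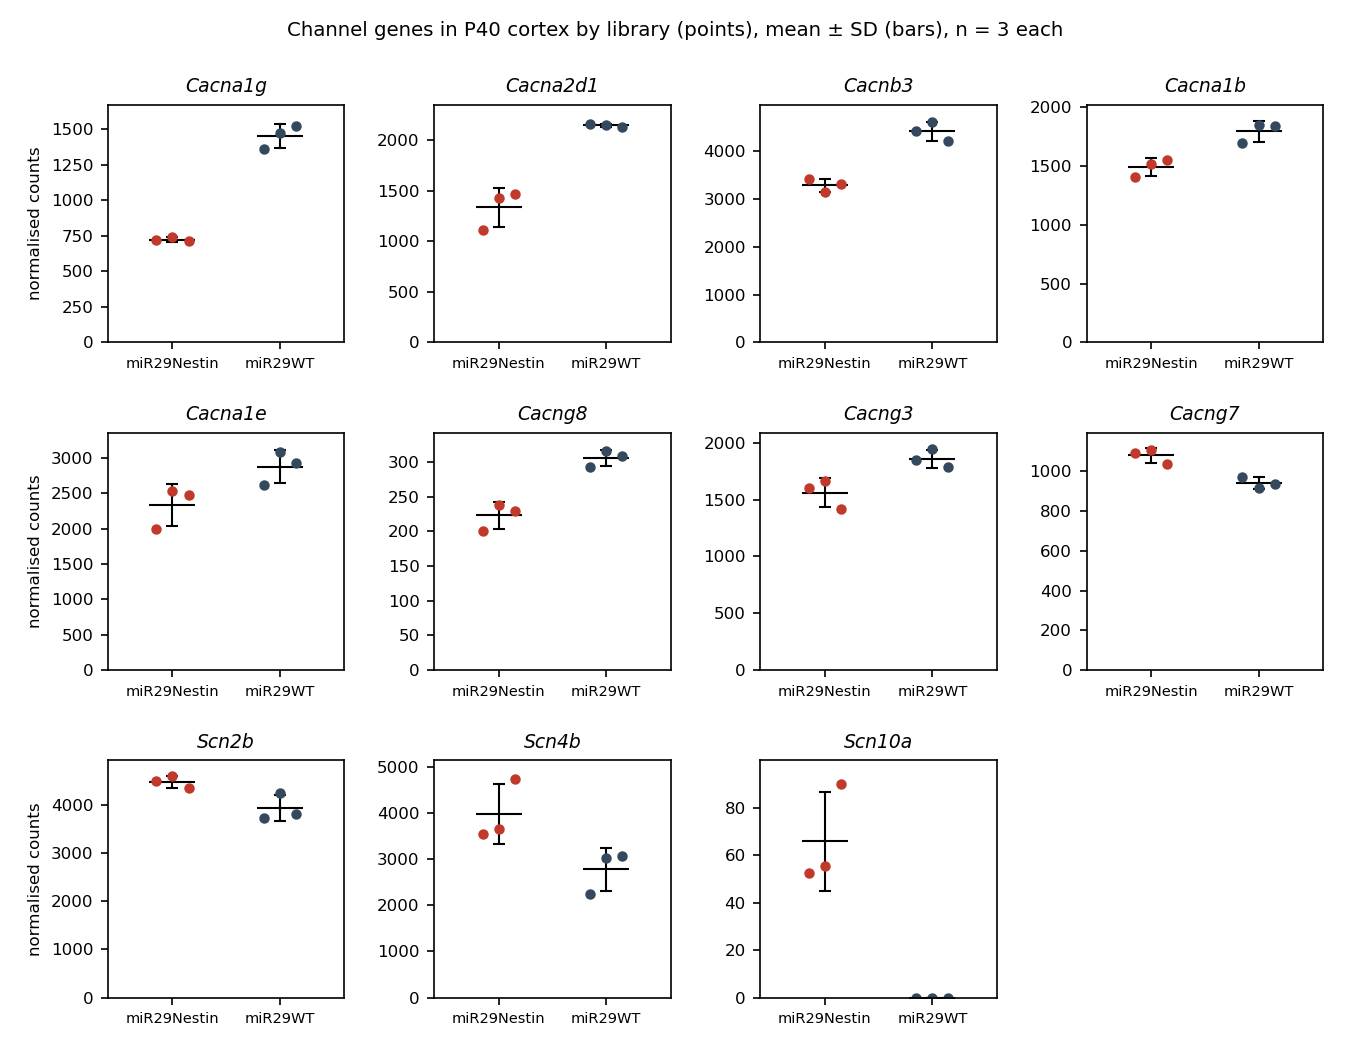
Each point is the normalised count of 1 P40 library, miR29Nestin on the left of each panel and miR29WT on the right, with horizontal bars at the group mean and error bars of 1 SD (n = 3 each); each panel has its own vertical scale from 0. The panels hold the 10 genes described that passed the test and Scn10a, which lay below the filter, and in all 11 the groups do not overlap.

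Among the high-voltage pores, all 5 that were tested had negative differences and 2 passed. Cacna1b, the N-type pore of presynaptic terminals, stood at 1404, 1521 and 1551 normalised counts in miR29Nestin against 1693, 1847 and 1841 in miR29WT, groups that did not overlap. It averaged 1492 ± 77.6 in miR29Nestin and 1793 ± 87.3 in miR29WT (SD, n = 3 each), a log2 difference of −0.24 (SE 0.057, adjusted p = 0.0143). Cacna1e, the R-type pore, stood at 1991, 2530 and 2483 counts in miR29Nestin against 2626, 3087 and 2930 in miR29WT. Its groups came close to each other without overlapping, and miR29Nestin library 1 lay lowest. The means of Cacna1e were 2335 ± 299 in miR29Nestin and 2881 ± 234 in miR29WT (SD, n = 3 each), with a log2 difference of −0.29 (SE 0.086, adjusted p = 0.0389). The call of Cacna1b was lost without miR29WT library 2 (adjusted p = 0.0668) or 3 (0.0620), and that of Cacna1e without miR29Nestin library 1 (0.0796), without miR29WT library 2 (0.151) or 3 (0.108), or without a mean-variance trend (0.0551). The P/Q-type pore Cacna1a and the L-type pores Cacna1c and Cacna1d had differences of −0.07, −0.11 and −0.10, with adjusted p values from 0.247 to 0.494.

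Of the α2δ subunits, extracellular proteins that carry calcium pores to the membrane, 1 of 4 fell. Cacna2d1, the α2δ-1 subunit that binds the drug gabapentin and takes part in forming excitatory synapses, stood at 1114, 1425 and 1469 normalised counts in miR29Nestin against 2158, 2155 and 2131 in miR29WT. The wild-type libraries were nearly alike, and all 3 mutant libraries lay well below them, library 1 the furthest. Cacna2d1 averaged 1336 ± 194 counts in miR29Nestin and 2148 ± 14.7 in miR29WT (SD, n = 3 each), a log2 difference of −0.63 (SE 0.082, adjusted p = 0.000493) and a ratio of means of 0.622. Without miR29Nestin library 1 the difference was −0.52, with an adjusted p of 0.000131. Cacna2d2 and Cacna2d3 had differences of 0.11 (SE 0.070) and 0.07 (SE 0.053) and were not called. Cacna2d4, near the filter at 46.6, 54.2 and 35.3 counts in miR29Nestin against 75.7, 67.2 and 59.8 in miR29WT, did not overlap between groups but missed the threshold (adjusted p = 0.0751). It passed only with striatal markers as a term (adjusted p = 0.0385).

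The calcium channel β subunits, cytoplasmic proteins that bind the pore and raise its surface level, gave 1 call among 4. Cacnb3 stood at 3417, 3144 and 3309 normalised counts in miR29Nestin against 4437, 4608 and 4215 in miR29WT, with a wide gap between the groups. Cacnb3 averaged 3290 ± 138 counts in miR29Nestin and 4420 ± 197 in miR29WT (SD, n = 3 each), a log2 difference of −0.41 (SE 0.052, adjusted p = 0.000425). Per length of its longest coding transcript Cacnb3 was the most abundant calcium channel gene in both groups, at 1203 normalised counts per kb in miR29Nestin and 1617 in miR29WT. Cacnb4, whose loss causes ataxia and seizures in mice, stood at 1613, 1996 and 2092 counts in miR29Nestin against 2315, 2278 and 2223 in miR29WT. All of its mutant libraries were lower, yet it narrowly missed the threshold, at −0.24 (SE 0.079, adjusted p = 0.0523). Fitting the replicate number as a block gave Cacnb4 an adjusted p of 0.0227, and leaving out miR29Nestin library 3 gave 0.0164. It also passed with the stricter filter (0.0498), libraries centred on their median (0.0413) and a robust variance prior (0.0492). Adding sex (0.0136) or striatal markers (0.0255) as a term let it pass as well. Cacnb1 and Cacnb2 had differences of −0.14 (SE 0.060) and 0.05 (SE 0.103), and Cacnb1 passed only without miR29WT library 1 (adjusted p = 0.0457).

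The γ subunits went both ways. Cacng8 and Cacng3, which encode AMPA-receptor partners of the TARP group, fell, and Cacng7, a TARP of another subclass, rose. Cacng8 stood at 201, 239 and 230 normalised counts in miR29Nestin against 293, 316 and 309 in miR29WT, a log2 difference of −0.29 (SE 0.064, adjusted p = 0.00979). Its means were 223 ± 19.9 in miR29Nestin and 306 ± 11.4 in miR29WT (SD, n = 3 each), and the groups lay well apart. Cacng3 stood at 1607, 1665 and 1418 counts in miR29Nestin against 1847, 1947 and 1787 in miR29WT, also without overlap. It averaged 1563 ± 130 in miR29Nestin and 1860 ± 80.8 in miR29WT (SD, n = 3 each), a log2 difference of −0.23 (SE 0.063, adjusted p = 0.0287).

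Cacng7 stood at 1094, 1110 and 1040 counts in miR29Nestin against 974, 916 and 935 in miR29WT. The groups were separated by a narrow gap, with means of 1081 ± 36.4 in miR29Nestin and 942 ± 29.6 in miR29WT (SD, n = 3 each) and a log2 difference of 0.17 (SE 0.053, adjusted p = 0.0463). Of these 3 genes, Cacng8 alone kept its call in every alternative run. Cacng3 lost it after quantile normalisation (adjusted p = 0.0644) and without miR29Nestin library 3 (0.0692) or miR29WT library 1 (0.0607), 2 (0.117) or 3 (0.0506). Cacng7 lost it with no filter (0.0633), with libraries centred on their median (0.0533), with no mean-variance trend (0.0588), and without miR29Nestin library 1 (0.0804) or 2 (0.148) or miR29WT library 1 (0.0618), 2 (0.148) or 3 (0.130). Cacng2, the stargazin gene, and Cacng4 and Cacng5 had differences of 0.09, −0.10 and −0.06 and were not called.

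Of the 3 sodium channel β subunits described 2 rose, and none of the 4 tested sodium pores passed. The β subunits are small membrane proteins with an immunoglobulin domain that speed gating and link the pore to adhesion molecules. Scn2b stood at 4488, 4601 and 4359 normalised counts in miR29Nestin against 3738, 4255 and 3818 in miR29WT. The lowest mutant library and miR29WT library 2 were close, though the groups did not overlap. Its means were 4483 ± 121 in miR29Nestin and 3937 ± 278 in miR29WT (SD, n = 3 each), with a log2 difference of 0.18 (SE 0.055, adjusted p = 0.0425). The call of Scn2b was lost without miR29Nestin library 1 (0.0703) or 2 (0.142), without miR29WT library 1 (0.128) or 3 (0.142), without a mean-variance trend (0.0747) and with sex as a term (0.0710). Scn3b, with a miR-29 site, had a difference of −0.12 (SE 0.095, adjusted p = 0.405).

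Scn4b, whose product supplies the blocking peptide of resurgent sodium current, had the largest positive difference of the tested channel genes. It stood at 3545, 3664 and 4732 normalised counts in miR29Nestin against 2236, 3034 and 3068 in miR29WT, so each group was spread widely but they did not overlap. Scn4b averaged 3980 ± 653 counts in miR29Nestin and 2779 ± 471 in miR29WT (SD, n = 3 each), a log2 difference of 0.49 (SE 0.122, adjusted p = 0.0172) and a ratio of means of 1.43. With a robust variance prior its adjusted p was 0.0843. Because Scn4b is abundant in the striatum, which borders the cortex, 8 striatal marker genes were summed in each library. The sums were 6915, 11038 and 16216 normalised counts in miR29Nestin and 8997, 13590 and 15625 in miR29WT, so they varied from library to library and overlapped between the groups, and none of the 8 markers was called. Per striatal marker count Scn4b stood at 0.513, 0.332 and 0.292 in miR29Nestin and at 0.249, 0.223 and 0.196 in miR29WT, again without overlap. With the logarithm of the striatal sum as a term, an alternative chosen after seeing the data, the difference was 0.58 (adjusted p = 3.22e-05). Of the 8 striatal markers themselves, 6 had negative differences in miR29Nestin, with a median of −0.15. The part of striatal tissue in the difference of Scn4b was not tested.

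**Figure D3:**
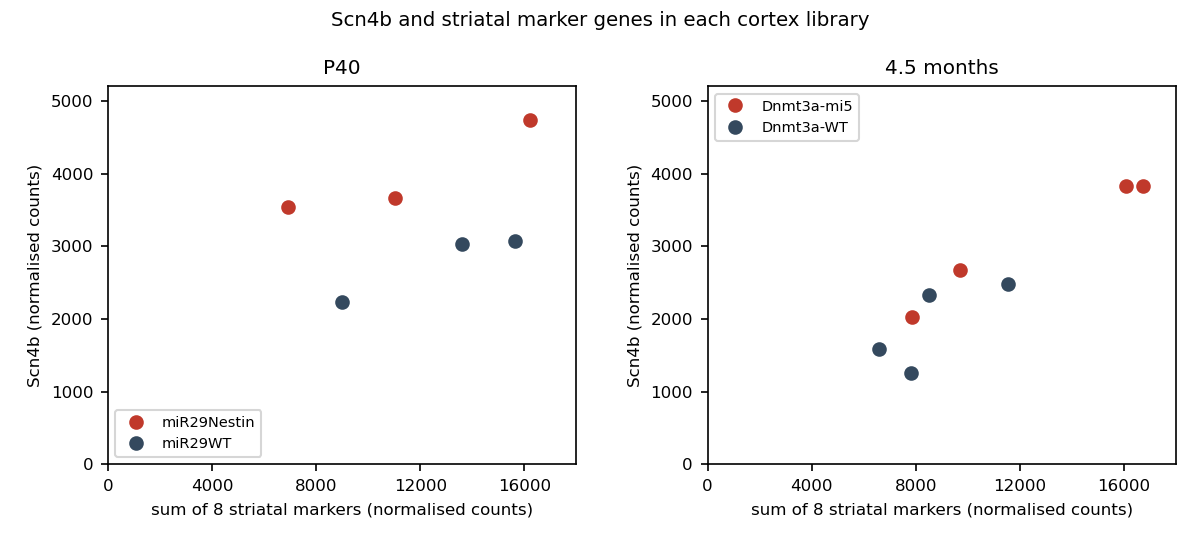
Each point is 1 cortex library, with the summed normalised counts of 8 striatal marker genes on the horizontal axis and Scn4b on the vertical axis, P40 on the left and 4.5 months on the right. At P40 the miR29Nestin points lie above miR29WT points of like striatal sums. At 4.5 months the 2 highest Scn4b values, 3825 and 3823 in Dnmt3a-mi5, belong to the 2 libraries with the highest striatal sums. The part of striatal tissue in Scn4b was not tested at either age.

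Of the sodium pores, Scn8a, which drives spike initiation at the axon initial segment, had a difference of −0.05 (SE 0.056), Scn2a −0.07 (SE 0.054) and Scn1a, the main pore of fast-spiking interneurons, 0.02 (SE 0.080). Their adjusted p values lay between 0.391 and 0.877. Scn3a, a pore of the fetal and early postnatal brain, stood at 188, 238 and 285 normalised counts in miR29Nestin against 265, 305 and 329 in miR29WT. The highest mutant library exceeded the lowest wild-type library, and the difference of −0.23 (SE 0.093, adjusted p = 0.118) did not pass, except with the replicate block (0.0247), with sex as a term (0.0475) or without miR29Nestin library 3 (0.0294).

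No HCN pore passed. Hcn2, a pore of thalamus and cortex, had a difference of −0.08 (SE 0.072, adjusted p = 0.492) and Hcn3 one of −0.11 (SE 0.064, adjusted p = 0.248). For Hcn3 the mutant libraries, at 181, 185 and 179 counts, all lay below the wild-type libraries, at 196, 232 and 198.

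At P40, 10 of the 41 channel genes lay below the filter, a mean of about 48.0 normalised counts. They were Hcn4, Cacng1, Cacng6, the calcium pores Cacna1f and Cacna1s, and the sodium pores Scn4a, Scn7a, Scn9a, Scn10a and Scn11a, most of which are best known from heart, skeletal muscle, retina or peripheral nerve. Apart from Scn10a, the highest value of any of them in any P40 library was 50.5 counts, that of Hcn4 in miR29WT library 2. Scn10a, the NaV1.8 pore of pain-sensing neurons, stood apart: it was at 52.3, 55.2 and 89.8 normalised counts in miR29Nestin and at 0 in all 3 miR29WT libraries. Against a floor of 3 reads per library it was at least 20.3-fold higher in miR29Nestin. With no filter limma gave it an adjusted p of 1.61e-06 over 18502 genes. Its neighbour on chromosome 9, Scn11a at a gap of 34.4 kb, did not share the pattern and stood at no more than 1.81 counts in any library. In the Dnmt3a table Scn10a stood at 6.20, 4.72, 6.54 and 5.72 counts in Dnmt3a-mi5 against 3.87, 3.51, 2.46 and 3.94 in Dnmt3a-WT. These values are low and approximate, although the groups do not overlap.

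Levels per transcript length ranged widely among the tested channel genes of the P40 cortex. The highest of those described were Cacnb3 and, at 963 normalised counts per kb in miR29Nestin and 846 in miR29WT, Scn2b, and the lowest was Cacna2d4, at 7.82 normalised counts per kb in miR29Nestin and 11.7 in miR29WT. Among high-voltage pores Cacna1a was highest, at 315 counts per kb in miR29Nestin and 331 in miR29WT, and Cacna1c and Cacna1d lowest, at 87.7 and 87.9 in miR29Nestin and 95.2 and 95.5 in miR29WT. The order of the T-type pores differed between the groups. In miR29Nestin Cacna1i had 178, Cacna1h 93.0 and Cacna1g 86.3 counts per kb, and in miR29WT Cacna1i had 198, Cacna1g 173 and Cacna1h 99.8. The levels of Cacna1h and Cacna1g in miR29Nestin did not differ beyond the spread of Cacna1h, which had a standard deviation of 140 counts on a mean of 765. Scn8a led the sodium pores at 556 counts per kb in miR29Nestin and 574 in miR29WT, followed by Scn2a at 413 in miR29Nestin and 435 in miR29WT. Scn1a had 213 counts per kb in miR29Nestin and 209 in miR29WT, and Scn3a 24.8 in miR29Nestin and 31.4 in miR29WT.

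**Figure D4:**
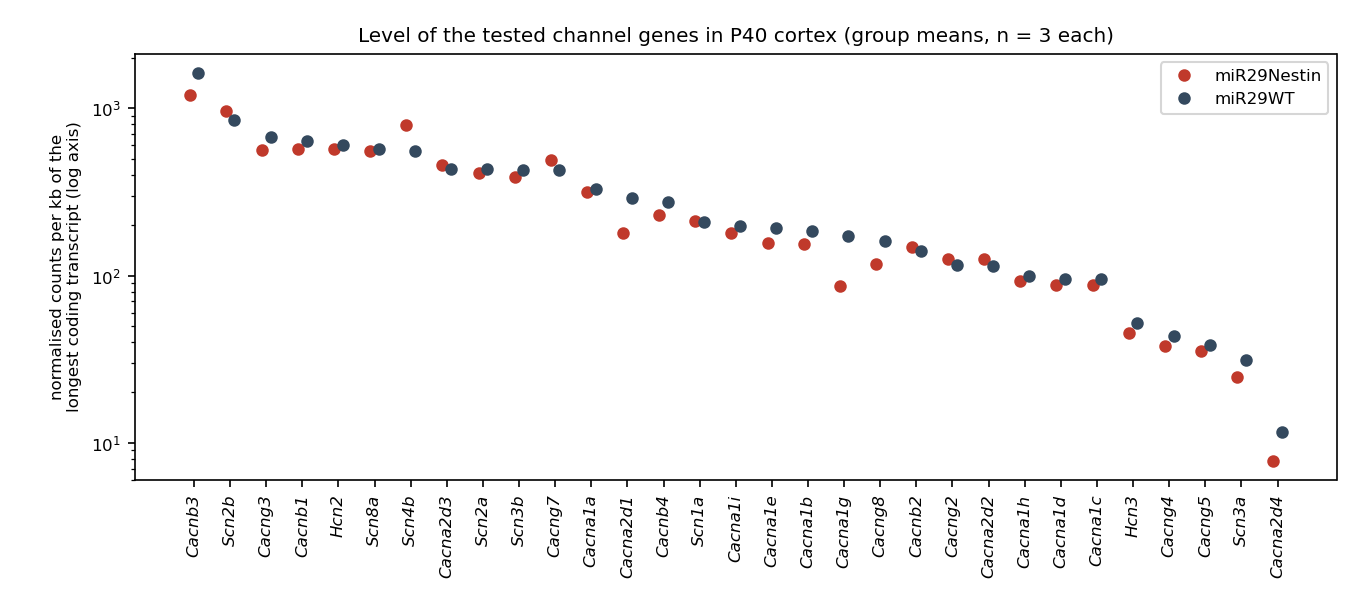
Mean normalised counts per kb of the longest coding transcript (log axis) of the 31 channel genes described and tested at P40, in miR29Nestin and miR29WT (n = 3 each), ordered by the level in miR29WT. Cacnb3 leads at 1203 in miR29Nestin and 1617 in miR29WT, and the widest gap between the groups with miR29Nestin lower is that of Cacna1g, at 86.3 in miR29Nestin and 173 in miR29WT.

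The genes of channel partners, a list of 42 that bind, anchor or tune these channels, moved in both directions as well. Of 36 tested in miR29Nestin, 4 rose and 7 fell, with a median log2 difference of −0.05. Together 30.6% were called, against 19.1% of all tested genes. The smallest p belonged to Stac2, an adaptor of L-type channels, which averaged 2451 ± 248 counts in miR29Nestin and 1524 ± 44.2 in miR29WT (SD, n = 3 each; log2 difference 0.62, adjusted p = 0.000182). Of the FGF homologous factors, which bind the tail of sodium pores, Fgf11 fell by 0.37 (adjusted p = 0.00184), Fgf13 fell by 0.32 (adjusted p = 0.00308) and Fgf14 fell by 0.32 (adjusted p = 0.00555) on the log2 scale, while Fgf12 had a difference of −0.09 and was not called (adjusted p = 0.320). Nrcam, an adhesion molecule of the axon initial segment and node, fell by 0.25 (adjusted p = 0.00555), and Rims1, an active-zone scaffold that binds calcium channels, fell by 0.41 (adjusted p = 0.00508).

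Markers of cell types moved beside these genes. Of 7 excitatory-neuron markers 4 fell, namely Slc17a7, Neurod2, Tbr1 and Fezf2, and their summed counts were 20804 to 23257 in miR29Nestin and 26222 to 27337 in miR29WT. Of 7 markers listed for Pvalb interneurons, several of which are shared with other interneurons, Pvalb and Gad1 rose and Gad2 and Erbb4 fell. Their sums were 11656 to 12849 in miR29Nestin and 10991 to 11491 in miR29WT. Of 6 Sst and Vip interneuron markers Sst and Calb2 fell, with sums of 2836 to 4376 in miR29Nestin and 4367 to 4663 in miR29WT. The lists of astrocytes, oligodendrocytes and their precursors leaned upwards. Of 7 astrocyte markers, Gfap, Gja1 and Gjb6 rose and Slc1a3 fell, with sums of 15639 to 16151 in miR29Nestin and 14319 to 15025 in miR29WT. Mbp and Mobp rose among 6 oligodendrocyte markers, with sums of 103728 to 115825 in miR29Nestin and 95224 to 105921 in miR29WT, and Pdgfra and Olig1 among 5 precursor markers, with sums of 4409 to 4830 in miR29Nestin and 3747 to 4191 in miR29WT. Col1a1, Col1a2 and Igf2 rose among 6 leptomeningeal markers (1370 to 1770 in miR29Nestin and 639 to 1084 in miR29WT), Rora rose among 6 thalamic and Prox1 fell among 6 hippocampal markers (hippocampal sums of 1076 to 1465 in miR29Nestin and 1085 to 1295 in miR29WT). Microglia (2936 to 3268 in miR29Nestin and 3071 to 3307 in miR29WT), endothelium (2416 to 2739 in miR29Nestin and 2209 to 2408 in miR29WT), choroid plexus (122.8 to 579.3 in miR29Nestin and 90.7 to 436.7 in miR29WT), striatum and muscle (155.6 to 180.3 in miR29Nestin and 137.3 to 192.0 in miR29WT) gave no called marker. The calls of Tbr1, Fezf2, Erbb4, Slc1a3, Mbp, Olig1, Col1a1, Col1a2 and Prox1 were each lost when some library was left out. The part of these shifts in the channel genes' differences was not tested.

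In Dnmt3a-mi5 cortex at 4.5 months, Cacna2d1 fell and no other channel gene passed. Of 30 channel genes tested, 0 were higher and 1 was lower, where 0.225% of all 10670 tested genes were called higher and 0.572% lower (0.797% in either direction). At an unadjusted p under 0.05, 5 channel genes were higher and 5 lower, against 8.42% and 10.6% of all tested genes (19.0% in either direction). Differences were negative for 17 of the 30, as for 48.7% of all tested genes. The median log2 difference of the channel genes was −0.02 and that of all tested genes 0.00. The 4 Dnmt3a-mi5 libraries all lay above the 4 Dnmt3a-WT libraries for 4 channel genes and below them for 2, against 5.33% and 6.67% of all tested genes (12.0% in either direction).

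Cacna2d1 stood at 2314, 2618, 2646 and 2496 normalised counts in Dnmt3a-mi5 against 3192, 3409, 3121 and 3207 in Dnmt3a-WT. All mutant libraries were lower, with a gap wider than the spread within either group. Cacna2d1 averaged 2518 ± 151 counts in Dnmt3a-mi5 and 3232 ± 124 in Dnmt3a-WT (SD, n = 4 each), a log2 difference of −0.32 (SE 0.043, adjusted p = 0.0149) and a ratio of means of 0.779, and ranked 12th by p among the 10670 genes. With those 2 sets of libraries as a term, the adjusted p was 0.0420. Within set 1 the difference was −0.37 and within set 2 −0.27, with 2 libraries a group and adjusted p values of 0.714 and 0.455. The call was lost without Dnmt3a-mi5 library 4 (adjusted p = 0.0512) or Dnmt3a-WT library 4 (0.0587). The other α2δ genes tested, Cacna2d2 and Cacna2d3, had differences of 0.11 (SE 0.081) and −0.02 (SE 0.032), and Cacna2d4 lay below the filter of about 80.1 counts.

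**Figure D5:**
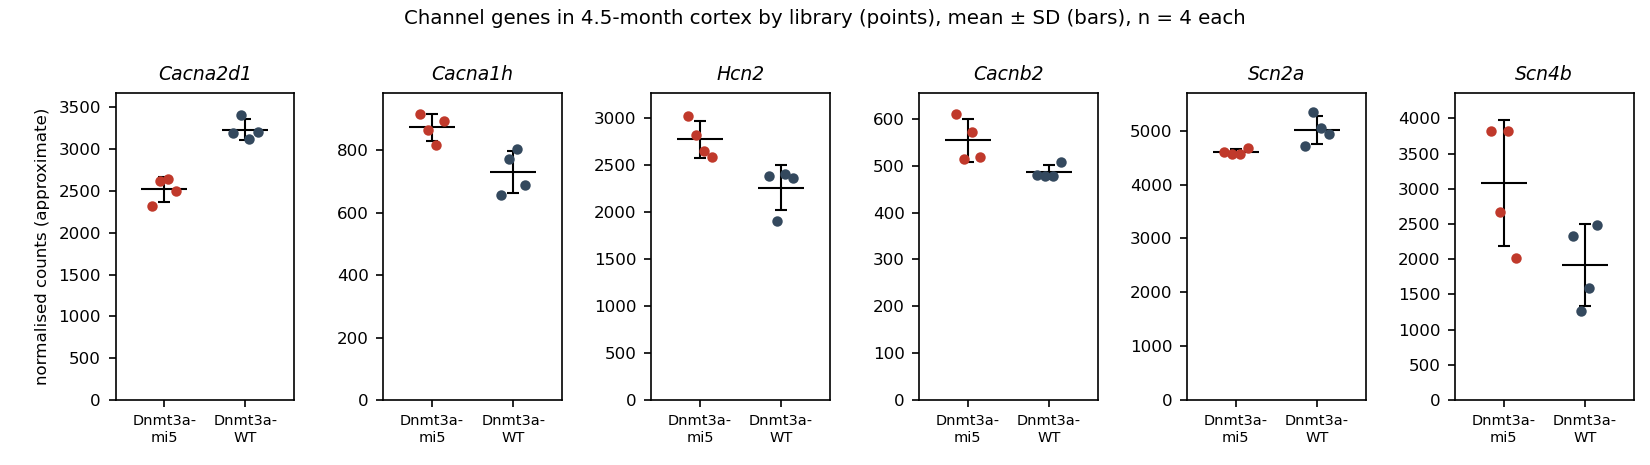
Each point is the approximate normalised count of 1 library at 4.5 months, Dnmt3a-mi5 on the left of each panel and Dnmt3a-WT on the right, with the group mean and error bars of 1 SD (n = 4 each) and a separate vertical scale from 0 in each panel. Cacna2d1 passed the test, with Dnmt3a-mi5 at 2314 to 2646 and Dnmt3a-WT at 3121 to 3409; the other 5 genes did not pass.

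Cacna1h, the T-type pore CaV3.2, came closest of the rest. It stood at 916, 867, 819 and 894 normalised counts in Dnmt3a-mi5 against 659, 773, 805 and 688 in Dnmt3a-WT, without overlap, and its difference of 0.18 (SE 0.047) had an adjusted p of 0.0816. Cacna1g, the tested channel gene with the largest difference at P40, stood at 1126, 963, 1020 and 1038 counts in Dnmt3a-mi5 against 1296, 972, 1114 and 1165 in Dnmt3a-WT. These groups overlapped, and the difference was −0.10 (SE 0.061, adjusted p = 0.423). Cacna1i had a difference of −0.12 (SE 0.051, adjusted p = 0.249), and the 5 tested high-voltage pores had differences from −0.10 to −0.02.

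Of the calcium β subunits, Cacnb2 stood at 611, 515, 573 and 518 counts in Dnmt3a-mi5 against 480, 477, 479 and 509 in Dnmt3a-WT. The highest wild-type library came close to the lowest mutant libraries, and the difference of 0.12 (SE 0.039, adjusted p = 0.143) did not pass. Cacnb4 had a difference of −0.23 (SE 0.085, adjusted p = 0.187) and overlapped between groups, at 2849, 3108, 3185 and 2787 counts in Dnmt3a-mi5 against 4249, 2964, 3388 and 3719 in Dnmt3a-WT. Dnmt3a-WT library 2 was the lowest of its group. Without that library the difference of Cacnb4 was −0.31 (adjusted p = 0.0487). Cacnb3 and Cacnb1 had differences of −0.04 and 0.06, and the 6 tested γ subunits lay between −0.02 and 0.06.

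Hcn2 stood at 3030, 2829, 2658 and 2593 counts in Dnmt3a-mi5 against 2383, 1904, 2406 and 2363 in Dnmt3a-WT. Every mutant library was higher and Dnmt3a-WT library 2 lay apart from its group. Hcn2 averaged 2777 ± 196 in Dnmt3a-mi5 and 2264 ± 241 in Dnmt3a-WT (SD, n = 4 each), a log2 difference of 0.26 (SE 0.067) that missed the threshold (adjusted p = 0.0833). Hcn3 had a difference of 0.05 (SE 0.032).

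Among sodium channel genes none passed. Scn2a stood at 4611, 4573, 4561 and 4677 counts in Dnmt3a-mi5 against 4719, 5338, 5051 and 4931 in Dnmt3a-WT, all mutant libraries being lower, with a difference of −0.11 (SE 0.038, adjusted p = 0.151). Scn1a, Scn3a and Scn8a had differences of −0.04, −0.07 and 0.01. The β subunits that rose at P40 had differences of 0.06 (Scn2b, SE 0.029) and 0.60 (Scn4b, SE 0.210), with adjusted p values of 0.263 and 0.161. Scn4b stood at 3825, 2676, 3823 and 2021 counts in Dnmt3a-mi5 against 2328, 1258, 1590 and 2481 in Dnmt3a-WT, so the groups overlapped. The striatal marker sums of the same libraries were 16068, 9696, 16740 and 7837 in Dnmt3a-mi5 and 8502, 7805, 6600 and 11548 in Dnmt3a-WT, high where Scn4b was highest. With that sum as a term, also chosen after seeing the data, the difference of Scn4b was 0.22 (adjusted p = 0.423). Of the 8 striatal markers themselves, 0 had negative differences in Dnmt3a-mi5, with a median of 0.35. None of them was called, and at an unadjusted p under 0.05 limma found 4 higher, against 8.42% of all tested genes. The part of striatal tissue in the difference of Scn4b was not tested at this age either.

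Of the 36 channel partner genes tested in Dnmt3a-mi5, limma called 0, and at an unadjusted p under 0.05 it found 3 higher and 9 lower, where 8.42% and 10.6% of all tested genes were. Excitatory-neuron markers gave no call, with sums of 21197 to 23775 in Dnmt3a-mi5 and 23795 to 24221 in Dnmt3a-WT. Cx3cr1 and P2ry12 fell among 6 microglial markers (sums of 2381 to 2719 in Dnmt3a-mi5 and 2749 to 2905 in Dnmt3a-WT), and Flt1 rose among 5 endothelial markers (1097 to 1278 in Dnmt3a-mi5 and 922.6 to 1090 in Dnmt3a-WT). The calls of P2ry12 and Flt1 were lost with the set term (adjusted p = 0.114 for each), and that of Cx3cr1 was kept with it. No other marker list gave a call. The choroid plexus sum ranged from 286.7 to 13588 in Dnmt3a-mi5 and from 113.6 to 11633 in Dnmt3a-WT, so it varied between libraries of both groups. The part of these marker shifts in the channel genes' differences was not tested.

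Both tables could be read side by side for 30 channel genes, which share no libraries. Of these, 19 had differences of the same sign, 14 negative and 5 positive, or 63.3%, against 58.8% of the 10610 genes tested in both. Across the 30 genes the differences correlated with a Pearson r of 0.66, against 0.28 across all genes tested in both. These are descriptions, since genes are not independent replicates and age and kits differ between the tables as well. The tables also differ in scale, with zero counts at log2 6.59 in the miR29 and 7.63 in the Dnmt3a values. The sizes of their differences are therefore not directly comparable. Genes at the extremes weigh heavily on the r of the channel genes. Scn4b had their highest difference in both tables, 0.49 and 0.60, and was not called in Dnmt3a-mi5. Cacna2d1 had their lowest in Dnmt3a-mi5. The correlation without these genes was not examined. Among all genes 25 were called in both tables, and Cacna2d1 was the channel gene among them, at −0.63 in miR29Nestin and −0.32 in Dnmt3a-mi5. The 25 became 4 with the set term in the Dnmt3a fit, 5 with no filter there, 68 without Dnmt3a-WT library 2 and 2 to 6 without any other Dnmt3a library. In these runs Cacna2d1 was among them except without Dnmt3a-mi5 library 4 or Dnmt3a-WT library 4. With the Dnmt3a fit within set 1 the 25 became 0, and within set 2 they became 1, which was not Cacna2d1. Whether the differences of any channel gene were unequal between the models was not tested.

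Channel genes are long. The annotated spans of the 41 (GENCODE M21, GRCm38) ran from 11.5 kb for Cacng6 to 817 kb for Cacna2d3. The 31 tested at P40 had a median span of 111 kb, against 26.8 kb for all tested genes, and 54.8% of them exceeded 100 kb, against 16.4%. The 17 channel genes over 100 kb had a median log2 difference of −0.10 in miR29Nestin, and the 14 shorter ones −0.11. For all tested genes these medians were −0.07 and 0.01. The 3 long channel genes that fell were Cacna2d1 (440 kb, chromosome 5), Cacna1e (494 kb, chromosome 1) and Cacna1b (159 kb, chromosome 2), and none of the long ones rose. The other 4 that fell, and all 3 that rose, were under 100 kb, among them Cacna1g (65.8 kb, chromosome 11) and Cacnb3 (13.7 kb, chromosome 15). Of the channel genes over 100 kb 17.6% were called lower, against 19.7% of all tested genes of that length, and of the shorter ones 28.6%, against 8.15%. Higher calls made up 0.00% of the channel genes over 100 kb, against 7.83% of all tested genes of that length, and 21.4% of the shorter ones, against 9.26%. In Dnmt3a-mi5 the 16 long channel genes had a median of −0.04 and the 14 shorter ones 0.06, against −0.02 and 0.01 for all tested genes.

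Some channel genes lie next to each other. Scn2b and Scn4b are 8.32 kb apart on chromosome 9 (45117782 to 45130070 and 45138395 to 45154152, both on the plus strand), and both rose in miR29Nestin. Cacng7 and Cacng8 are 22.5 kb apart on the plus strand of chromosome 7 (3332955 to 3368221 and 3390683 to 3415648), and there the first rose and the second fell. Cacng6, 8.55 kb beyond Cacng8, stood at 8.36, 3.00 and 0.905 counts in miR29Nestin against 14.3, 14.3 and 9.16 in miR29WT, too low to be tested.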

How the data were processed

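Per the labels' protocols, stranded libraries of mouse cortex mRNA were sequenced from both ends with 50 cycles. TruSeq reagents were used for the miR29 mice and KAPA reagents for the Dnmt3a mice. Tools in the submitters' processing notes are cutadapt, STAR, Salmon and DESeq2, and builds are hg19 and mm9, with neither versions nor roles. The authors deposited variance-stabilised log2 values from DESeq2, 1 table of 24444 genes per model, and 0 columns of per-sample values were left unused. Columns of the Dnmt3a table repeat their names and map to groups only, so its libraries are numbered by column order. There, 2 sets of 4 libraries had the same mean in each gene, to within 5.5e-09, against 0.538 for the next closest sets, so an additive shift had been taken out before deposit. Set 1 holds libraries 1 and 2 of each group.

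Inverting the transformation, with zero counts at log2 6.59 in the miR29 and 7.63 in the Dnmt3a values, gave normalised counts. For the miR29 mice 90.7 to 91.7% of low values then lay within 0.05 of a whole read. Library correlations within groups were 0.989 to 0.997.

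Each table was tested alone with limma 3.58.1 (R 4.3.3; empirical Bayes with a mean-variance trend), over genes with a mean 1 or more above the table's minimum (about 48.0 and 80.1 normalised counts), with Benjamini-Hochberg adjustment over all of them and calls at an adjusted p under 0.05. The procedure was tested on simulated data with independent noise in each library. Those data held neither the shift subtracted from the Dnmt3a table nor deviations shared between libraries. They therefore cannot check the p-values under either. The same-numbered miR29 libraries deviated together (correlations of 0.34, 0.20 and 0.19), which is more than 0.1 for each of the 3 pairs, so the replicate number was also fitted as a block. By the Y-linked gene Ddx3y, at more than 20 normalised counts, 1 of 3 miR29Nestin and 2 of 3 miR29WT libraries were male. Other alternatives changed the filter, scaling, variance model and scale, left out each library, and added sex, set or striatal markers as terms. The last, and the fits within sets, were chosen after seeing the data.

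Every called channel gene is named with all its values, the called partner genes up to 6, and called markers. The channel genes, lists and tests were chosen with earlier results of these data known. Results for 3 of the 44 channel genes, 1 partner gene and 1 marker are not reported here, and counts over the lists leave them out. GENCODE M21 held 23793 of the symbols as such and 290 as synonyms, and lacked 361. Python 3.11.15, pandas 2.3.3 and matplotlib 3.10.9 were used for summaries and figures.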

Additional observations from a re-analysis of the deposited data

Results flagged for a closer look

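Across 60 groups of 4 libraries, 1 for each tested channel gene and group of the Dnmt3a table, 2 held a library that stood apart from the other 3 by Dixon's test, which picks out about 1 group in 20 by chance. Hcn2, an HCN pore of thalamus and cortex, was low in Dnmt3a-WT library 2, at 1904 normalised counts, whereas the other Dnmt3a-WT libraries had 2363 to 2406. Without that library the difference of Hcn2 was 0.19 (adjusted p = 0.0611). Cacnb2, a calcium channel β subunit, was high in Dnmt3a-WT library 4, at 509.1 normalised counts, whereas the other Dnmt3a-WT libraries had 477.2 to 480.1.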

How the results depend on the processing

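In miR29Nestin Cacna1g, Cacna2d1, Cacnb3, Cacng8 and Dnmt3a kept their direction and their call in every alternative run, and Scn4b in all but the robust prior. The 3 higher and 7 lower channel genes became 1 higher without a mean-variance trend, and 1 to 3 higher and 4 to 8 lower when a library was left out. With the replicate number as a block they became 3 higher and 9 lower, adding Cacnb4 and Scn3a, the block changed no other channel call, and all genes gave 1409 higher and 1628 lower. The 4 higher partner genes became 2 with no filter, 2 without the trend and 1 to 6 without a library; the 7 lower ones ranged from 6 to 11. In Dnmt3a-mi5 the single lower channel gene became 0 within set 1, 0 within set 2 and 0 to 2 without a library, and lower partner genes became 1 with the stricter filter, 1 with the striatal term and 0 to 1 without a library. Dnmt3a had a difference of 0.73 within set 1 (adjusted p = 0.714), where 2 libraries a group remained. All 24 higher and 61 lower genes of that model became 3 and 10 with the set term, 4 and 21 with no filter, 38 and 87 with the stricter filter, 10 and 32 with the striatal term, 0 and 0 within set 1, 2 and 2 within set 2, 36 and 83 with the robust prior, and 49 and 126 without Dnmt3a-WT library 2, against 3 to 4 and 5 to 17 without any other library. The causes were not tested. No paired analysis was possible for the Dnmt3a table because its columns repeat their replicate names. Differences that changed sign were small and uncalled. When a library was left out they ranged in miR29Nestin from −0.204 to 0.002 for Cacna1h, −0.057 to 0.163 for Cacnb2, −0.128 to 0.003 for Hcn2 and −0.044 to 0.091 for Scn1a, and in Dnmt3a-mi5 from −0.123 to 0.003 for Cacna1a, −0.060 to 0.013 for Cacna1c, −0.066 to 0.006 for Cacna1d, −0.048 to 0.012 for Cacna1e, −0.017 to 0.093 for Cacng2, −0.042 to 0.005 for Cacng3, −0.004 to 0.11 for Cacng4, −0.016 to 0.148 for Cacng5, −0.047 to 0.026 for Cacng8, −0.125 to 0.009 for Scn1a and −0.053 to 0.054 for Scn8a. Cacnb2 in miR29Nestin was −0.022 with sex as a term. In Dnmt3a-mi5, within set 1 Cacna1a was 0.005, Cacng7 0.027 and Scn1a 0.076; within set 2 Cacna1e was 0.015, Cacng8 0.056 and Scn8a −0.068. With the striatal term Cacna2d2 was −0.022, Cacng4 −0.045, Cacng5 −0.069 and Cacng8 0.085, and Cacng8 was 0.000 with libraries centred on their median.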
